A study of Komagataella phaffii with 15 samples.

Results

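The *flo8Δ* strain of *K. phaffii* was compared with its wild-type parent at fast growth, the first sampling point (S1) of a glucose-limited chemostat, to find the transcripts whose level depends on the Flo8 regulator. The comparison used 6 of the 15 RNA-Seq libraries, 3 of the *flo8Δ* strain and 3 of the wild-type strain, chosen by strain and sampling point alone. Of the 5341 transcripts in the deposited table, 5306 had at least 10 normalized counts in at least 3 of the 6 libraries and were tested. The third highest count of a transcript, which decides the filter, was 10.1 for the last one kept and 9.87 for the first one left out. Both strains are CBS7435, grew in chemostat medium with glucose as the limiting nutrient and were sampled after 5 residence times at 0.1 h-1, the growth rate set by the dilution rate. The *flo8Δ* strain lacks part of the *FLO8* promoter and the start of its reading frame and carries no remaining selection marker. It is a single mutant strain, so a second change in that strain and the loss of Flo8 cannot be told apart. The same cultivation was then slowed to 0.05 h-1 and sampled as S3, which is used here only to set the S1 values beside the strain difference at slow growth.

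Flocculins, the products of the *FLO* genes, are proteins of the yeast cell surface that let cells stick to each other and to surfaces. In *Saccharomyces cerevisiae*, Flo8 is a transcription factor that switches on several *FLO* genes, among them *FLO11*, which that yeast needs for pseudohyphal and invasive growth. In *K. phaffii*, pseudohyphal growth is known from slow growth in glucose-limited culture, so S1 shows the strains before that condition is set.

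The libraries held between 4163342 and 9765593 reads in the *flo8Δ* strain and between 4632193 and 10843287 in the wild-type strain, as recovered from the normalized counts. The shallowest library of the wild-type strain, replicate 3, also stood apart from the others of its strain. Its log2 TPM correlated with those of replicates 1 and 2 at 0.987 and 0.977 across transcripts, against 0.994 to 0.996 between the *flo8Δ* libraries. Mitochondrial transcripts took 1.57% to 1.99% of the reads in the *flo8Δ* strain and 1.23% to 1.52% in the wild-type strain, which do not overlap. An exact two-sided permutation test gave p = 0.1, the smallest that 3 against 3 libraries allow, and its part in the results was not tested. TPM are transcript levels scaled by effective transcript length and library total. They were measured on bulk cultures, where fewer cells that express a gene and less RNA per cell cannot be told apart. The replicates are described as biological, and every p-value measures the spread between these libraries.

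*FLO8* (PP7435_Chr4-0252) itself was still read in the mutant. Its TPM were 24.1, 28.5 and 31.9 in the *flo8Δ* strain, against 36.7, 32.8 and 39.2 in the wild-type strain. The 2 strains did not overlap, but the log2 fold change of -0.27 (SE, the standard error, 0.11) was not significant (limma adjusted p = 0.10). Reads were counted over the whole annotated transcript of 2421 bases, most of which the deletion leaves in place, so this value checks the strain labels only weakly. With 1 library left out the adjusted p ran between 0.046, without *flo8Δ* replicate 3, and 0.28. *ACT1*, which encodes actin and serves as a reference gene, had 1813, 1667 and 1634 TPM in the *flo8Δ* strain and 1679, 1689 and 1813 TPM in the wild-type strain. The log2 fold change was 0.07 (SE 0.08, limma adjusted p = 0.53).

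Loss of Flo8 went with lower levels far more often than with higher ones. In the *flo8Δ* strain 135 transcripts were lower, 2.54% of those tested, and 34 were higher, 0.641% of those tested, called where limma gave an adjusted p under 0.05 and the log2 fold change passed 1 up or down. At that adjusted p alone, and at any fold, 831 transcripts (15.7%) were lower and 801 (15.1%) were higher, so the 2 directions were nearly even among small differences. The excess of lower transcripts lay in the large ones. Among the 135 lower transcripts 42 differed by more than 2 on the log2 scale, 19 by more than 3 and 7 by more than 5, while a single transcript among the 34 higher ones passed 2. The median log2 fold change was -1.56 for the lower and 1.25 for the higher transcripts, and 0.00 over all tested. The strains did not overlap at any of the 169 called transcripts, nor at 47.2% of all transcripts tested, and the thresholds themselves favor such transcripts.

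**Figure D1:**
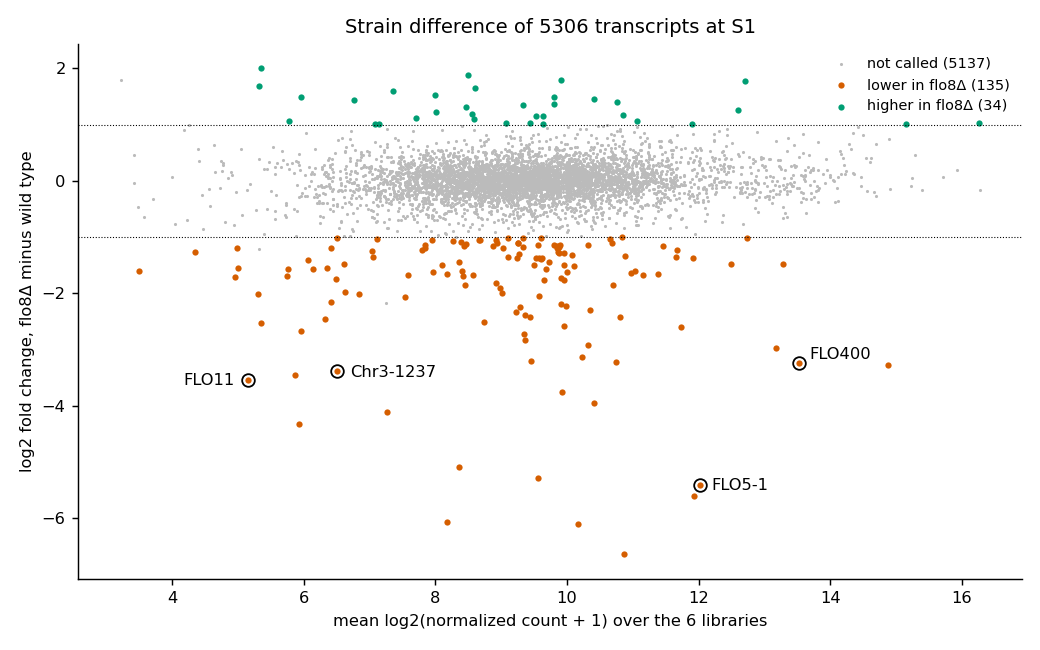
Each point is 1 of the 5306 transcripts tested at S1. The horizontal axis is the mean of log2(normalized count + 1) over the 6 libraries, the vertical axis is the log2 fold change of the *flo8Δ* strain over the wild-type strain, and dotted lines mark -1 and 1. The 135 lower transcripts reach down to -6.64, the 34 higher ones end at 2.00, and the 4 circled transcripts are the members of the *FLO* family among the lower ones.

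The lower transcripts took a larger part of the wild-type transcriptome than their number shows. Their TPM summed to 9515, 9166 and 9323 in the *flo8Δ* libraries and to 57501, 62521 and 53748 in the wild-type libraries. The median of their mean levels was 25 TPM in the *flo8Δ* strain and 108 TPM in the wild-type strain. Of the 135, 10 averaged over 1000 TPM in the wild-type strain and 1 did so in the *flo8Δ* strain, while 19 averaged under 5 TPM in the *flo8Δ* strain and 0 in the wild-type strain. The higher transcripts summed to 46946, 45156 and 50288 TPM in the *flo8Δ* libraries and to 23447, 23819 and 23270 TPM in the wild-type libraries. Both lists were called by direction in these same libraries, so the direction of their sums was built in. A single one of the 135 had under 10 normalized counts in every *flo8Δ* library and at least 10 in every wild-type library. *FLO11*, another of the 135, also depended on its wild-type libraries to pass the filter on low counts. Its normalized counts were 8.15, 16.5 and 6.21 in the *flo8Δ* libraries and 190, 198 and 46.0 in the wild-type libraries. With 10 required in every library, 131 of the 135 were called.

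Of the 13 members of the *K. phaffii FLO* family, 12 passed the filter on low counts. 4 of them were lower in the *flo8Δ* strain, against 2.54% of all transcripts tested, and 0 were higher (0.641% of all) at both thresholds. A further 3 were higher at the adjusted p alone, as were 15.1% of all transcripts tested, and 5 did not pass the test. The median log2 fold change of the 12 was 0.11, against 0.00 over all transcripts tested, so most of the family did not follow its 4 lower members. The family was listed by the study that made these libraries, and its behaviour here is not independent evidence of a direction.

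**Figure D2:**
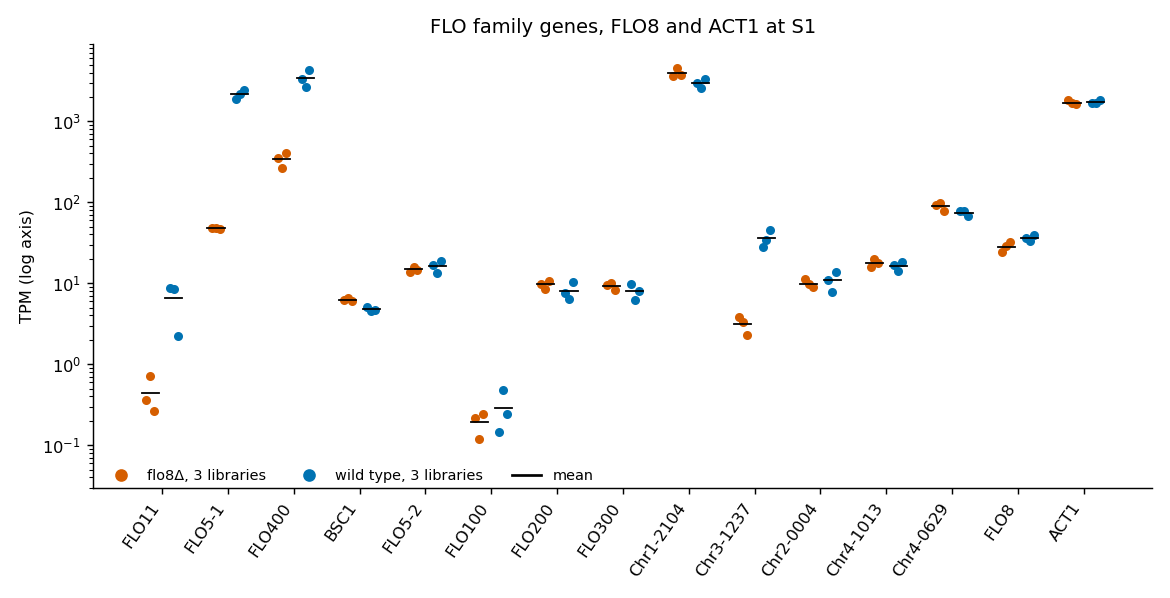
TPM on a log axis at S1 for the 13 *FLO* family members, *FLO8* and *ACT1*, with 3 *flo8Δ* libraries to the left and 3 wild-type libraries to the right of each gene and bars at the means. *FLO11*, *FLO5-1*, *FLO400* and PP7435_Chr3-1237 lie apart by strain, with means of 47.5 TPM in the *flo8Δ* strain and 2156 TPM in the wild-type strain for *FLO5-1*, while *ACT1* averages 1705 TPM in the *flo8Δ* strain and 1727 TPM in the wild-type strain.

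*FLO5-1* (PP7435_Chr1-1389), a flocculin gene, had the largest difference of the family. The study's text places *FLO5-1* and *FLO5-2* on other chromosomes than its map of the loci does, and the identifiers used here follow the map. *FLO5-1* had 47.7, 48.2 and 46.5 TPM in the *flo8Δ* libraries, against 1893, 2167 and 2409 TPM in the wild-type libraries. The libraries of each strain lay close together and far from the other strain, and the log2 fold change was -5.40 (SE 0.09, limma adjusted p = 9.6e-09). Its level, relative to *ACT1* in the same library, averaged 2.79% in the *flo8Δ* strain and 125% in the wild-type strain. Leaving out any 1 library gave log2 fold changes between -5.50 and -5.35.

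*FLO400* (PP7435_Chr4-0865), also a flocculin gene, kept the highest level of the 4 in the mutant. It had 349.6, 265 and 403 TPM in the *flo8Δ* libraries and 3312, 2669 and 4313 TPM in the wild-type libraries. The lowest wild-type library was above the highest *flo8Δ* library, and the log2 fold change was -3.24 (SE 0.18, limma adjusted p = 1.0e-05). *FLO400* thus remained at 20% of the *ACT1* level in the *flo8Δ* strain, against 198% in the wild-type strain.

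PP7435_Chr3-1237, a family member with no gene name, was expressed at a much lower level. It had 3.80, 3.29 and 2.32 TPM in the *flo8Δ* libraries and 27.9, 34.2 and 46.0 TPM in the wild-type libraries. The strains did not overlap, with a log2 fold change of -3.38 (SE 0.22, limma adjusted p = 2.8e-05).

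*FLO11* (PP7435_Chr2-0267), the flocculin gene needed for pseudohyphal growth in *S. cerevisiae*, was the least expressed of the 4. Only 10, 9 and 8 reads were recovered in the *flo8Δ* libraries, against 271, 265 and 28 reads in the wild-type libraries, or 0.363, 0.707 and 0.262 TPM in the *flo8Δ* strain and 8.81, 8.57 and 2.24 TPM in the wild-type strain. The log2 fold change was -3.53 (SE 0.57, limma adjusted p = 0.0028), and its standard error was the largest of the family. Wild-type replicate 3 deviated by -2.05 on the log2 scale from the mean of the other 2 wild-type libraries. Without that library the log2 fold change was -4.21, and over all libraries left out in turn the adjusted p was at most 0.019. DESeq2 with shrinkage gave -1.23 (adjusted p = 5.7e-05).

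The 3 members higher at the adjusted p alone changed little. *BSC1* had 6.16, 6.67 and 5.99 TPM in the *flo8Δ* libraries and 5.04, 4.61 and 4.64 TPM in the wild-type libraries, a log2 fold change of 0.49 (SE 0.09, limma adjusted p = 0.0059). PP7435_Chr1-2104, the most abundant member, had 3648, 4508 and 3777 TPM in the *flo8Δ* libraries and 2972, 2555 and 3299 TPM in the wild-type libraries, with a log2 fold change of 0.53 (SE 0.11, limma adjusted p = 0.0099) that did not pass in the estimated counts (0.23, adjusted p = 0.75 from edgeR). PP7435_Chr4-0629 averaged 89.6 ± 9.81 TPM in the *flo8Δ* strain and 74.5 ± 5.92 TPM in the wild-type strain (SD, n = 3 each), with a log2 fold change of 0.36 and an adjusted p of 0.040 from limma that reached 0.15 with 1 library left out. All 3 had every *flo8Δ* library above every wild-type library.

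The 5 tested members that did not pass the test were low in both strains. *FLO5-2* averaged 14.9 ± 1.08 TPM in the *flo8Δ* strain and 16.4 ± 2.71 TPM in the wild-type strain (SD, n = 3 each). *FLO200* averaged 9.70 ± 1.11 TPM in the *flo8Δ* strain and 8.09 ± 2.05 TPM in the wild-type strain, and *FLO300* 9.32 ± 0.925 TPM in the *flo8Δ* strain and 8.0 ± 1.84 TPM in the wild-type strain. PP7435_Chr2-0004 averaged 9.91 TPM in the *flo8Δ* strain and 10.9 TPM in the wild-type strain, and PP7435_Chr4-1013 17.8 TPM in the *flo8Δ* strain and 16.3 TPM in the wild-type strain. Their log2 fold changes ran from -0.04 for *FLO5-2* to 0.38 for *FLO200*, with adjusted p-values of 0.12 or more from limma, and the strains overlapped for all 5. Without wild-type replicate 3 *FLO200* passed the adjusted p threshold, at a log2 fold change of 0.53 (limma adjusted p = 0.017). *FLO100*, the member that was not tested, had 4, 1 and 5 reads in the *flo8Δ* libraries and 3, 10 and 2 reads in the wild-type libraries, too few to show a difference.

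The authors deposited a further quantification of each library, kallisto estimated counts from files named as stranded, which sum to 5.10% to 5.41% of the recovered reads in the *flo8Δ* libraries and 5.06% to 5.62% in the wild-type libraries. Setting one beside the other shows how much of a gene's normalized count also enters the stranded estimate, if the estimate is taken as a part of the reads. The sources used here do not give the strand setting behind the normalized counts, so reads from a gene and from an antisense partner cannot be told apart in them. Estimated counts of some members were not whole numbers, as happens where kallisto divides reads between similar transcripts, so the counts of close family members are uncertain to that extent.

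For 3 of the 4 lower *FLO* genes this share differed widely between the strains. The estimated counts of *FLO11* were 9, 9 and 8 in the *flo8Δ* libraries and 5, 11 and 0 in the wild-type libraries. Taking them from the reads left 1, 0 and 0 reads in the *flo8Δ* strain, against 266, 254 and 28 in the wild-type strain. At *FLO5-1* the pooled share was 52.8% in the *flo8Δ* strain and 1.20% in the wild-type strain, and at PP7435_Chr3-1237 it was 90.2% in the *flo8Δ* strain and 5.63% in the wild-type strain.

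In the estimated counts alone, *FLO5-1* had 397, 198 and 435 counts in the *flo8Δ* libraries and 453, 448 and 184 in the wild-type libraries. edgeR gave it a log2 fold change of 0.11 (adjusted p = 0.50), while the adjusted p over its other alternatives was at most 4.0e-06. For PP7435_Chr3-1237 the estimated counts gave 0.66 (adjusted p = 0.13 from edgeR, at most 6.9e-04 over its other alternatives). The strain difference of these 2 genes was therefore found in the reads outside the stranded estimate. *FLO400* differed from them, since its share was 0.952% in the *flo8Δ* strain and 0.649% in the wild-type strain, and it was lower by both measures (log2 fold change -2.55 in the estimated counts, adjusted p = 5.3e-06 from edgeR). The stranded estimate also left out most *ACT1* reads, holding 0.326% of them in the *flo8Δ* strain and 0.365% in the wild-type strain. An unchanged estimate thus says little of the main reads of a gene. Which strand the estimate counts was not tested.

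**Figure D3:**
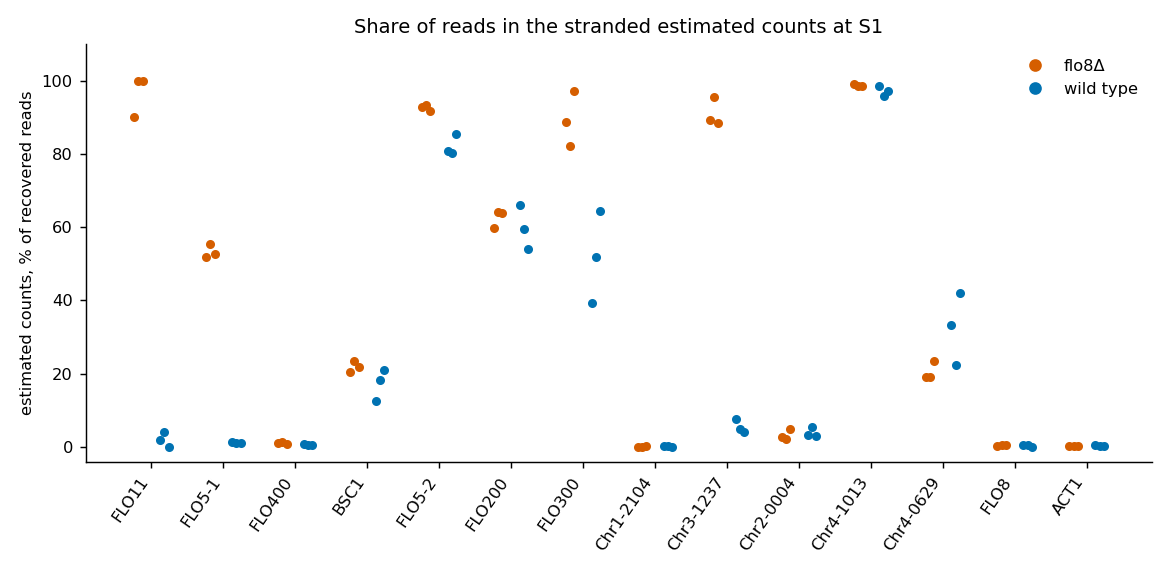
Kallisto estimated counts as a percentage of the recovered reads at S1, for *FLO8*, *ACT1* and the *FLO* family without *FLO100*, with 3 *flo8Δ* libraries to the left and 3 wild-type libraries to the right of each gene. The strains lie far apart at *FLO11*, *FLO5-1* and PP7435_Chr3-1237, where the pooled shares are 96.3%, 52.8% and 90.2% in the *flo8Δ* strain and 2.84%, 1.20% and 5.63% in the wild-type strain, while both are under 1% at *FLO400*, *FLO8* and *ACT1*.

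2 members that did not pass the test passed it once the estimated counts were taken out, an alternative chosen after the data had been seen. *FLO300* was left with 25, 20 and 6 reads in the *flo8Δ* libraries and 156, 78 and 30 in the wild-type libraries. That was a log2 fold change of -2.12 (adjusted p = 0.019 from edgeR). With all reads kept, *FLO300* passed in no alternative, at adjusted p-values between 0.057 and 0.34 (both from limma). In the estimated counts alone it went the other way, with 1.18 (adjusted p = 4.4e-04 from edgeR). *FLO5-2* was left with 31, 15 and 41 reads in the *flo8Δ* libraries and 108, 91 and 38 in the wild-type libraries. That was a log2 fold change of -1.30 (adjusted p = 0.0014 from edgeR). No other alternative of *FLO5-2* passed, at adjusted p-values between 0.39 and 0.92 (both from limma).

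Over all lower transcripts the stranded share was larger in the mutant as well. Part of this was built in, since these transcripts were called for low counts in the mutant and the reads behind those counts divide the share. Its median over the 135 was 11.4% in the *flo8Δ* strain and 3.38% in the wild-type strain, against 2.69% in the *flo8Δ* strain and 2.88% in the wild-type strain over all transcripts tested. The share exceeded 50% for 30 of the 135 in the *flo8Δ* strain and for 12 in the wild-type strain. Among all transcripts tested it did so for 393 (7.41%) in the *flo8Δ* strain and 363 (6.84%) in the wild-type strain.

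The files do not pair the other identifiers with gene names, so the remaining transcripts are given by count and range, with the 2 lowest and the 2 highest log2 fold changes by identifier. PP7435_Chr1-1165 had 219, 91 and 279 reads in the *flo8Δ* libraries, against 43157, 48997 and 3583 in the wild-type libraries. Its log2 fold change of -6.64 (SE 0.58, limma adjusted p = 1.7e-04) was the lowest of all transcripts tested. The estimated counts held 97.8% of its reads in the *flo8Δ* strain and 0.911% in the wild-type strain, and taking them out left 6, 3 and 4 reads in the *flo8Δ* libraries. In the estimated counts alone PP7435_Chr1-1165 lost its call at a log2 fold change of -0.40 (edgeR adjusted p = 0.11, at most 0.0031 over its other alternatives). DESeq2 with shrinkage gave -1.69.

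PP7435_Chr3-1699 had 15.5, 11.4 and 12.2 TPM in the *flo8Δ* libraries and 1482, 1806 and 326 TPM in the wild-type libraries. The log2 fold change was -6.10 (SE 0.57, limma adjusted p = 2.3e-04). At both of these transcripts wild-type replicate 3 was the lowest wild-type library, deviating by -2.50 and -2.44 on the log2 scale from the mean of the other 2, and still above every *flo8Δ* library. DESeq2 with shrinkage gave PP7435_Chr3-1699 a log2 fold change of -1.68.

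PP7435_Chr3-1223 had the highest log2 fold change, 2.00 (SE 0.30, limma adjusted p = 0.0019), from 93, 47 and 103 reads in the *flo8Δ* libraries and 22, 20 and 19 reads in the wild-type libraries. PP7435_Chr2-0189 followed with 1.89 (SE 0.14, limma adjusted p = 5.5e-05), from 738, 445 and 891 reads in the *flo8Δ* libraries and 257, 224 and 133 reads in the wild-type libraries. Its estimated counts came to 87.8% of the reads in the *flo8Δ* strain and 51.1% in the wild-type strain. Without them 105, 43 and 106 reads were left in the *flo8Δ* libraries and 142, 89 and 69 in the wild-type libraries, and the call was lost (log2 fold change -0.14, adjusted p = 0.61 from edgeR, at most 8.3e-04 over its other alternatives).

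Among the lower transcripts, wild-type replicate 3 was low more often than among all transcripts tested. Wild-type replicate 3 was lower by more than 1 on the log2 scale than the mean of the other 2 wild-type libraries at 58 of the 5306 transcripts tested, 1.09%. Of these 58, 37 were among the 135 lower transcripts, 27.4% of them. In each of the other 5 libraries the same held for at most 4 transcripts tested. *FLO11*, PP7435_Chr1-1165 and PP7435_Chr3-1699 were among the 37, and *FLO5-1*, *FLO400* and PP7435_Chr3-1237 were not.

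**Figure D4:**
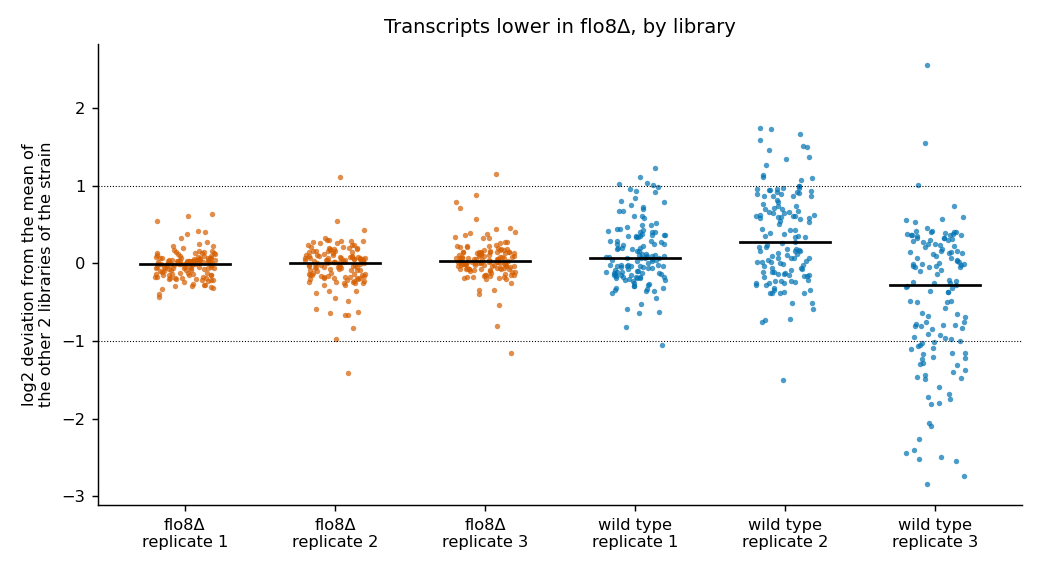
For each of the 135 transcripts lower in the *flo8Δ* strain, the vertical axis gives the log2 deviation of a library from the mean of the other 2 libraries of its strain, for the 3 *flo8Δ* and the 3 wild-type libraries. Bars are medians and dotted lines mark -1 and 1. The *flo8Δ* medians lie between -0.01 and 0.03, and 37 points of wild-type replicate 3 lie below -1.

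The median levels of these 37 transcripts were 17.5, 16.7 and 20.4 TPM in the *flo8Δ* libraries and 141, 152 and 62.9 TPM in the wild-type libraries. The *flo8Δ* libraries were alike, and wild-type replicate 3 lay between them and the other wild-type libraries. For the other 98 lower transcripts the medians were 28.8, 29.8 and 29.0 TPM in the *flo8Δ* libraries and 113, 104 and 103 TPM in the wild-type libraries, with no library apart. That wild-type replicate 3 was low in the 37 and not in the 98 follows from how they were split. Wild-type replicate 3 also had the fewest reads of its strain, and the part of depth in its values was not tested. Without it, 158 transcripts were lower and 27 higher, and 131 of the 135 and 24 of the 34 were called again. In every fit with 1 library left out, 99 of the 135 lower and 19 of the 34 higher transcripts were called.

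The higher transcripts were short. Their median length was 312 bases, against 1146 bases for the lower transcripts and 1176 for all tested, and 15 of the 34 (44.1%) were at most 300 bases long, against 3.90% of all tested. The 207 tested transcripts of at most 300 bases had a median log2 fold change of 0.36, the 465 of 301 to 500 bases one of 0.11, and the 1042 over 2000 bases one of -0.02. In the shortest class the libraries also differed within a strain. Their median log2 deviations from the mean of all 6 libraries were 0.12, 0.14 and 0.30 in the *flo8Δ* strain and -0.20, 0.04 and -0.41 in the wild-type strain. What part this shift by length, which was present in short transcripts as a whole, had in the 15 short higher transcripts was not tested. The other 19 of the 34 were over 300 bases long.

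The lower transcripts often stood next to each other in the numbering of the locus tags, taken here as their order along the chromosome. Of the 135, 32 (23.7%) had another lower transcript at the preceding or following number, while 216 (4.07%) of all transcripts tested had a lower one beside them. On chromosome 1 the 2 transcripts before *FLO5-1* were both lower. The nearer had 5.26, 4.31 and 4.63 TPM in the *flo8Δ* libraries and 152, 190.3 and 179 TPM in the wild-type libraries (log2 fold change -5.08), and the farther had a log2 fold change of -1.97. The transcript after *FLO5-1* was not lower (0.37).

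The transcript before PP7435_Chr3-1237 was lower as well, with 2.20, 2.72 and 1.85 TPM in the *flo8Δ* libraries and 13.5, 13.2 and 21.1 TPM in the wild-type libraries (log2 fold change -2.66). *FLO400* and *FLO11* had no lower neighbour among the transcripts tested, but for both the number directly before was not among those tested. The transcripts after them had log2 fold changes of -0.34 and 0.39. A lower neighbour directly before them, as at *FLO5-1* and PP7435_Chr3-1237, could thus not be seen. Within 3 numbers, lower transcripts also lay near members that were not lower, with log2 fold changes of -2.07 for the transcript 2 numbers before PP7435_Chr4-1013 and -1.28 and -1.69 for those 2 and 3 numbers after PP7435_Chr4-0629. Higher transcripts lay near family members too. PP7435_Chr3-1223 and the transcript after it, with log2 fold changes of 2.00 and 1.43, precede *FLO200*, and the transcript after PP7435_Chr4-1013 had one of 1.5. Lower transcripts were found on all 4 chromosomes, at 3.22% of those tested on chromosome 1, 2.22% on chromosome 2, 2.26% on chromosome 3 and 2.30% on chromosome 4.

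At slow growth (S3) the same test called 202 of 5312 transcripts lower in the *flo8Δ* strain, 3.8% of those tested, and 22 higher, 0.414%. Of the 135 lower at S1, 104 were among the 202, which is 77.0% of the S1 list and 51.5% of the S3 list, and 11 of the 34 higher were among the 22. The 2 sampling points share no library, but each chemostat passed through both, so the same cultures may stand behind both. All 37 lower transcripts with a low wild-type replicate 3 were lower at S3 too, as were 67 of the other 98. The median levels of the 37 were 20.3 TPM in the *flo8Δ* strain and 256 TPM in the wild-type strain at S3, against 18.5 TPM in the *flo8Δ* strain and 113 TPM in the wild type at S1. For the other 98 they were 35.3 TPM in the *flo8Δ* strain and 109 TPM in the wild-type strain at S3, against 29.0 TPM in the *flo8Δ* strain and 105 TPM in the wild type at S1.

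The difference between the strain differences was tested as an interaction over the 12 libraries. Of 5305 transcripts, 19 (0.358%) had a log2 difference, the strain difference at S3 minus that at S1, below -1 at an adjusted p under 0.05 from limma, and 10 (0.189%) had one above 1. Among the 135 lower at S1, 8 fell below -1 and 7 lay above 1. The 135 were called in the same S1 libraries whose strain difference is subtracted here, which by itself raises their log2 difference. Without wild-type S1 replicate 2 the 19 and 10 became 79 and 21.

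*FLO11* was among those with the larger difference at slow growth. It had 0.288 ± 0.143 TPM in the *flo8Δ* strain and 58.8 ± 20.5 TPM in the wild-type strain at S3 (SD, n = 3 each), against 0.444 ± 0.233 TPM in the *flo8Δ* strain and 6.54 ± 3.73 TPM in the wild type at S1. Its strain difference was lower at S3 by a log2 difference of -4.05 (SE 0.73, limma adjusted p = 0.0095). With edgeR on the recovered reads the difference was not significant (log2 difference -3.55, adjusted p = 0.11).

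*FLO5-1* and PP7435_Chr3-1237 had the larger difference at fast growth. *FLO5-1* had 47.9 ± 3.38 TPM in the *flo8Δ* strain and 666.3 ± 43.3 TPM in the wild-type strain at S3, so its level in the mutant was nearly the same at both sampling points. The log2 difference between S3 and S1 was 1.55 (SE 0.11, limma adjusted p = 7.5e-06). PP7435_Chr3-1237 had 7.89 ± 1.84 TPM in the *flo8Δ* strain and 13 ± 3.95 TPM in the wild-type strain at S3, with a log2 difference of 2.63 (SE 0.34, limma adjusted p = 0.0011). These values rest on all reads. At S1 the stranded estimate held 52.8% of the *flo8Δ* reads of *FLO5-1* and 90.2% of those of PP7435_Chr3-1237. The part of the stranded estimate in the S3 levels and in the interaction was not tested. *FLO400* had 114 ± 15.7 TPM in the *flo8Δ* strain and 1776 ± 410 TPM in the wild-type strain at S3, and its log2 difference of -0.77 did not pass the test (adjusted p = 0.085 from limma). Of the 12 fits with 1 library left out, only that without wild-type S1 replicate 3 passed for *FLO400* (-0.91, limma adjusted p = 0.029). The adjusted p-values of these 12 limma fits ran up to 0.18.

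**Figure D5:**
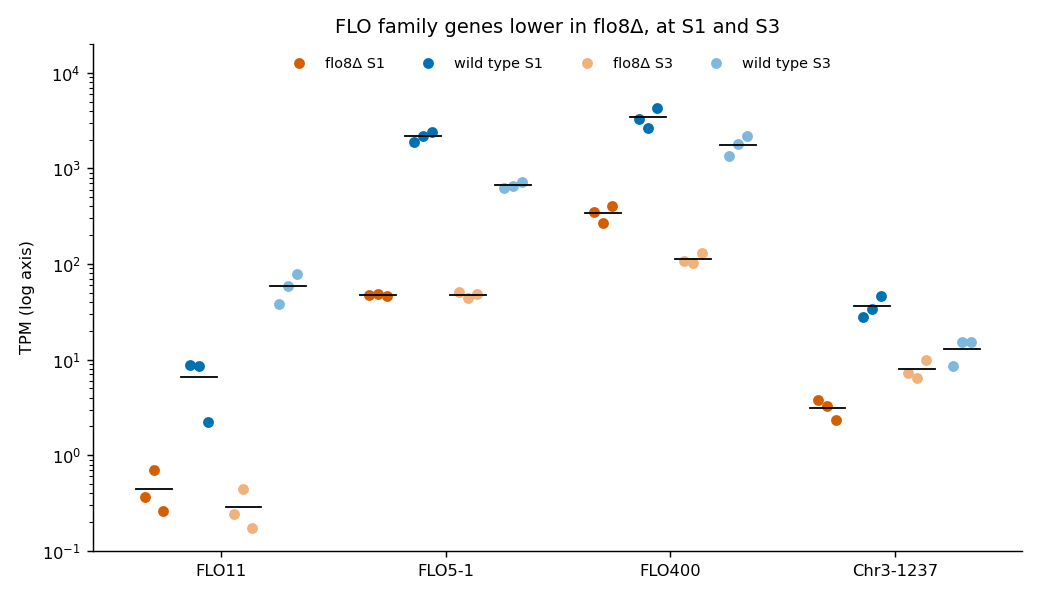
TPM on a log axis for the 4 *FLO* family members lower in the *flo8Δ* strain, with 3 libraries and their mean (bar) for each strain at S1 (fast growth) and S3 (slow growth), the *flo8Δ* strain left of the wild-type strain. *FLO11* in the wild-type strain averages 6.54 TPM at S1 and 58.8 TPM at S3, *FLO5-1* in the *flo8Δ* strain averages 47.5 TPM at S1 and 47.9 TPM at S3, and PP7435_Chr3-1237 shows the smallest gap between the strains at S3.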

How the data were processed

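Poly-A RNA of the chemostat samples was sequenced as single reads, which the authors trimmed with Trim Galore 0.4.2, quantified with kallisto 0.43.1 on the CBS7435 transcripts, imported with tximport and normalized with DESeq2 1.14.1. The deposited normalized counts, used as a signal per transcript, come in 6 tables of 6 libraries, normalized within each table. Their columns name the strain, a stage number and the replicate, which was read as the order of the cultivation, leaving 0 unused. The map was checked against the labelled estimated counts, each of the 15 libraries correlating best with its own column. These correlations were weak, from 0.262 to 0.366. In the other direction, 14 of the 15 columns correlated best with their own library. The authors also deposited kallisto estimated counts for each library. The strand setting of the normalized counts is not given in the sources used here.

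Reads were recovered by multiplying each column by the effective length factor of tximport and dividing the result by the step of the column. With this, 100% of values came within 0.01 of a whole number. TPM were computed from these reads and kallisto's effective lengths. The main test was limma 3.58.1 in R 4.3.3, with a variance trend and Benjamini-Hochberg adjustment, on log2(normalized count + 1) of the transcripts that reached 10 normalized counts in 3 or more libraries. The fold changes are on this scale, which understates the change of low genes. The interaction of strain and sampling point used the tables of S1 and S3, which were normalized separately. Fits were tested on simulated data.

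The alternatives were edgeR 4.0.16 (TMM or RLE) and DESeq2 1.42.0, with and without shrinkage, on the recovered reads, edgeR on the rounded estimated counts, other filters, a pseudocount of 0.1, a replicate block and each library left out. edgeR on the reads with the estimated counts taken out was added after seeing the data. The named genes are *FLO8*, the 13 *FLO* family genes, *ACT1*, and the 2 called transcripts with the lowest and the 2 with the highest log2 fold change. Members and lists were chosen with earlier results of these data known. Lists given by symbol only, such as pheromone response genes, could not be matched to identifiers (0 of the reference rows matched) and were not used.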

Additional observations from a re-analysis of the deposited data

Results flagged for a closer look

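The strain difference of 4 *FLO* family genes differed between the sampling points by the interaction test of limma, at an adjusted p under 0.05. The log2 difference, S3 minus S1, was -4.05 for *FLO11*, 1.55 for *FLO5-1* and 2.63 for PP7435_Chr3-1237. For *BSC1* it was -0.58 (standard error 0.14, adjusted p = 0.036), with means of 4.24 TPM in the *flo8Δ* strain and 4.35 TPM in the wild-type strain at S3, against 6.27 TPM in the *flo8Δ* strain and 4.76 TPM in the wild type at S1. With 1 of the 12 libraries left out in turn, *BSC1* no longer passed in 8 of the 12 fits, with adjusted p-values of up to 0.089.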

How the results depend on the processing

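The count of 135 lower transcripts stayed within 1.5 times under the alternatives run, between 107 (DESeq2 with shrinkage) and 188 (edgeR on the estimated counts, 33 of them shared), and between 114 and 158 with 1 library left out. The count of 34 higher transcripts was 21 with DESeq2 with shrinkage, 62 with edgeR on the estimated counts (5 shared), and between 23 (without *flo8Δ* replicate 3) and 51 (without wild-type replicate 2) with 1 library left out. The 29 transcripts whose strain difference changed between S3 and S1 came to between 20 and 100 with 1 library left out, the highest without wild-type S1 replicate 2. The cause of these shifts was not tested.

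Same-numbered libraries did not deviate together (correlations of 0.0019, -0.069 and -0.13), nor did same-numbered libraries of S1 and S3 within a strain (-0.27 to 0.093). With 3 libraries per group this cannot exclude that the numbers pair the samples. Fits without a block take the libraries as independent, although the same cultures may stand behind S1 and S3. With the replicate number as a block, 135 transcripts were lower and 31 higher, and the *FLO400* difference between S3 and S1 passed the adjusted p threshold (0.030, against 0.085 without the block).

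Log2 fold changes at S1 that turned sign were, with edgeR on the estimated counts, *FLO5-1* (0.11), *FLO5-2* (0.15), PP7435_Chr3-1237 (0.66), PP7435_Chr4-0629 (-0.26) and *ACT1* (-0.057). With edgeR on the reads without the estimated counts they were *FLO300* (-2.12), PP7435_Chr2-0189 (-0.14) and PP7435_Chr2-0004 (0.014). PP7435_Chr2-0004, at -0.01 in limma, was also 0.012 and 0.013 with edgeR (TMM and RLE) and 0.0011 and 9.3e-04 with DESeq2 (without and with shrinkage). With 1 library left out it ranged from -0.18 to 0.15, and *FLO5-2* from -0.12 to 0.036. The difference between S3 and S1 ranged from -0.0051 to 0.17 for *FLO5-2*, from -0.20 to 0.13 for PP7435_Chr2-0004 and from -0.47 to 0.21 for PP7435_Chr3-1223. The cause was not tested.

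The difference between S3 and S1 of *FLO300*, -0.77 at an adjusted p of 0.47, became -1.50 (0.021) without wild-type S3 replicate 1. That of PP7435_Chr1-1165, -1.51 (0.18), became -1.996 (0.029) without wild-type S1 replicate 2 and -0.68 (0.025) without wild-type S1 replicate 3, and that of PP7435_Chr3-1699, -1.56 (0.16), became -2.06 (0.020) and -0.74 (0.014). All are from limma.

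With 3 libraries a strain, no exact test of a single value can go below p = 0.1. The 8 to 10 *FLO11* reads and the 1 to 5 *FLO100* reads of a library limit what can be said of those genes in the *flo8Δ* strain.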
